A study of Mus musculus with 4 samples.

Results

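Interferon-responding monocytes of the mouse ankle joint were taken as cells that combined RNA of interferon-induced genes with RNA of monocyte genes. A cell was a member when at least 4 of the 5 genes Ifit1, Ifit2, Ifit3, Rsad2 and Cmpk2 had a UMI (unique molecular identifier, 1 counted RNA molecule), when these 5 genes made up at least 0.1% of its gene UMIs, and when Ly6c2 or Ccr2 had at least 1 UMI. Of 14451 cells kept after filtering, 501 were members: 17 of 1071 in the baseline library, 445 of 5941 in the peak library, 25 of 2828 in the plateau library and 14 of 4611 in the resolution library. Members were thus selected on the measured RNA of these 7 genes, whose levels are no finding, and every comparison of members with other cells is a description without a test.

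All libraries came from bone marrow chimeras written as CD45.1 B6 --> CD45.2 B6 BMC: marrow of CD45.1 donors grew in irradiated CD45.2 recipients, with a shield over the ankle. The shielded ankle can keep recipient cells, and the CD45 variant on a cell tells donor-derived from recipient cells. Arthritis was STIA, caused by serum of K/BxN transgenic mice. Live cells of the ankle synovium were sorted as positive for CD45 and CD11b and negative for Ly6G, SiglecF, CD177, CD64, MHCII and Ly6c, and RNA and antibody tags were counted together (CITE-seq). Each stage had 1 library: untreated baseline on day 0, and STIA, with the serum injected retro-orbitally, on day 7 (peak), day 14 (plateau) and day 56 (resolution). All 3 arthritis titles, but not the baseline title, add "Clo-lip"; the labels do not explain it, and its part and that of the stage cannot be told apart. How many mice went into a library, and their age, are not given in the sources used here. With no replicate library there is no test between stages, and each interval below is a 95% interval for counting error alone.

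Type I interferons bind a receptor made of IFNAR1 and IFNAR2. Through JAK1 and TYK2 it activates STAT proteins, which with IRF9 bind interferon-stimulated response elements in the promoters of antiviral genes. Among the induced genes are nucleic acid sensors, effectors that block viral RNA, the feedback inhibitor USP18 and chemokines such as CXCL10. Classical monocytes, marked by Ly6C and CCR2, leave the marrow for inflamed tissue and respond readily to interferon.

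The sort and the RNA did not match in full. The stated gate left out cells stained for Ly6C, CD64 and MHC class II, yet the members carried Ly6c2 RNA by their definition and also bound these antibodies. The median Ly6C antibody count per member was 603 UMIs at baseline, 27 at peak, 12 at plateau and 13 at resolution. Against cells of the same library with low interferon RNA (comparison cells, described below), its log2 ratios were 0.72, -0.12, 0.16 and 1.41. The 12 classical monocyte genes outside the definition and found in the files (among them Plac8, Ms4a4c and Chil3) made up 1.15%, 1.14%, 0.792% and 0.960% of the members' UMIs from baseline to resolution, against 0.830%, 0.912%, 0.782% and 0.568% in comparison cells. None of these 12 was at 0 in the members of any library. At peak 6 of the 12 were higher in members, with a median log2 ratio of -0.03, and Plac8 and Ms4a4c alone passed 2-fold. At baseline, plateau and resolution 9 of 11, 9 of 12 and 8 of 11 tested genes were higher. Siglech, a marker of plasmacytoid dendritic cells, had no UMI in any member. The list of 8 such markers made up 0.0805%, 0.0868%, 0.0857% and 0.0630% of members' UMIs from baseline to resolution. In comparison cells it made up 0.0248%, 0.0325%, 0.0352% and 0.0245%. Bst2 and Tcf4, its 2 genes tested at peak, were both higher in members, with log2 ratios of 1.67 and 0.85. Of 13 neutrophil markers, 4 were at 0 in members at baseline, 1 (Ly6g) at peak, 7 at plateau and 7 at resolution. At least 4 neutrophil markers were seen in 40 of 445 peak members and 173 of 3932 peak comparison cells, in 4 of 17 and 143 of 569 at baseline, in 0 of 25 and 19 of 1540 at plateau, and in 1 of 14 and 20 of 1979 at resolution.

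Tissue macrophage markers separated members less clearly. Of 17 such genes, 9 were at 0 in members at baseline, 0 at peak, 4 at plateau and 3 at resolution. The list made up 0.185%, 0.310%, 0.837% and 0.801% of members' UMIs from baseline to resolution, against 0.298%, 0.293%, 0.471% and 0.537% in comparison cells. Median shares per cell were 0.179%, 0.188%, 0.391% and 0.245% in members and 0.162%, 0.187%, 0.266% and 0.233% in comparison cells. At resolution 1 member held all C1qa and C1qc UMIs of the members, and 1 member held 99.2% of their C1qb UMIs. At plateau 13 of 25 members had Ccr2 without Ly6c2. Ly6c2 was seen in 48% of plateau members and 45% of comparison cells, but as a selecting gene it is no evidence on the label. The classical monocyte share over all plateau members was close to that of comparison cells (0.792% and 0.782%). The plateau shares of both lists thus go against a plain monocyte label, and the members are named throughout by the rule that chose them.

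Members were compared with cells of the same library that had Ly6c2 or Ccr2 and no more than 1 of the 5 interferon genes: 569 at baseline, 3932 at peak, 1540 at plateau and 1979 at resolution. UMIs were summed over cells and given as CPM (UMIs scaled to 1000000 gene UMIs). Members were deeper than comparison cells in 3 libraries, with medians of 11556 and 8638 gene UMIs at baseline, 9327 and 8182 at peak, and 8233 and 6601.5 at plateau, and shallower at resolution, with 4371.5 and 5259. Over all pairs of libraries, 27 cell barcodes were shared, 1 of them a member's. Gene counts of a library's kept cells summed to between 11957871 (baseline) and 58705149 (peak) UMIs.

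The peak library held the highest share of members. At baseline they were 1.59% of kept cells (exact Clopper-Pearson interval 0.927% to 2.53%). The peak share was 7.49% (6.83% to 8.19%), the plateau share 0.884% (0.573% to 1.30%) and the resolution share 0.304% (0.166% to 0.509%). The interval at peak overlapped none of the others, and those of baseline and plateau overlapped. Among cells with Ly6c2 or Ccr2 the shares were 2.49%, 8.92%, 1.53% and 0.690% in the same order. When each cell was thinned to 2000 UMIs, which left out 83, 444, 422 and 572 shallower cells, the shares were 0.405%, 2.77%, 0.291% and 0.173%. The order of the 4 libraries stayed as before, but the thinned intervals of baseline, plateau and resolution overlapped.

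**Figure D1:**
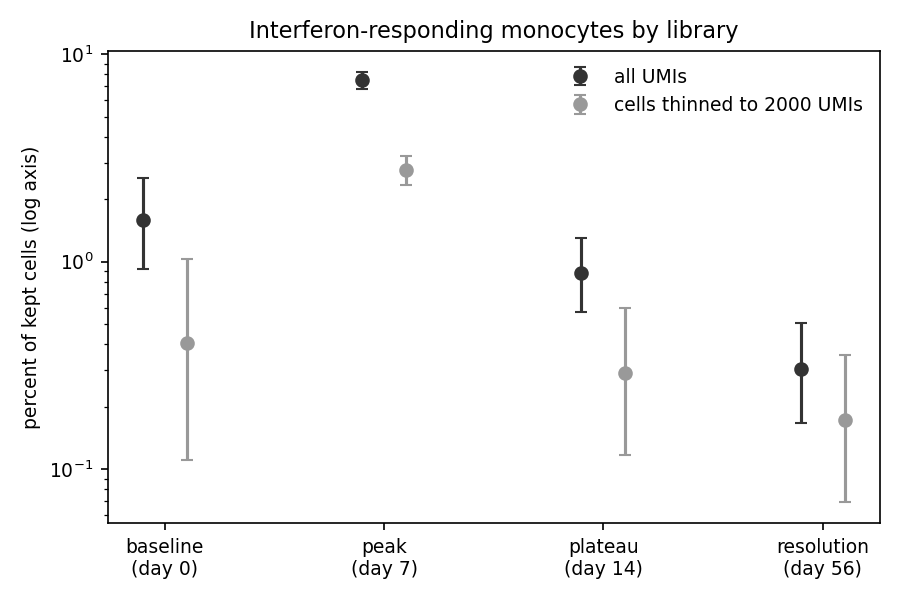
Share of kept cells that were members in each library (log axis), with all UMIs (black) and after thinning each cell to 2000 UMIs (grey); bars are exact 95% binomial intervals for counting error. The peak library, at 7.49%, stands above the other 3, which lie between 0.304% and 1.59%.

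At peak, other interferon genes were higher step by step with the number of selecting genes detected. The 83 listed interferon genes that are not selecting genes, called other interferon genes here, made up a median of 1.12% of gene UMIs in peak cells with Ly6c2 or Ccr2 and none of the 5 genes. With 1, 2, 3, 4 and 5 of them detected the medians were 1.40%, 1.73%, 2.01%, 2.33% and 2.81%. These steps held 3241, 691, 292, 228, 263 and 271 cells, with median depths from 8071 to 9915 UMIs that were higher at each step. In the other libraries, where the steps with 4 or 5 genes held 4 to 18 cells, the order was broken: the medians with 4 and 5 genes were 2.23% and 1.85% at baseline and 2.23% and 2.19% at plateau, and those with 3 and 4 genes were 2.45% and 2.21% at resolution. Members as a whole had medians of 2.63% at baseline, 2.65% at peak, 2.26% at plateau and 2.31% at resolution, against 1.08%, 1.17%, 0.963% and 0.719% in comparison cells. These medians within members were similar in the 4 libraries while the number of members differed. Members of each library had passed the same limits on interferon genes, so the similarity may follow from the selection and is no finding. Just outside the limit, 89 peak cells with 4 or 5 genes but under 0.1% had a median of 1.88%, and just inside it, 78 members within 1.5 times of the limit had 2.15%.

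**Figure D2:**
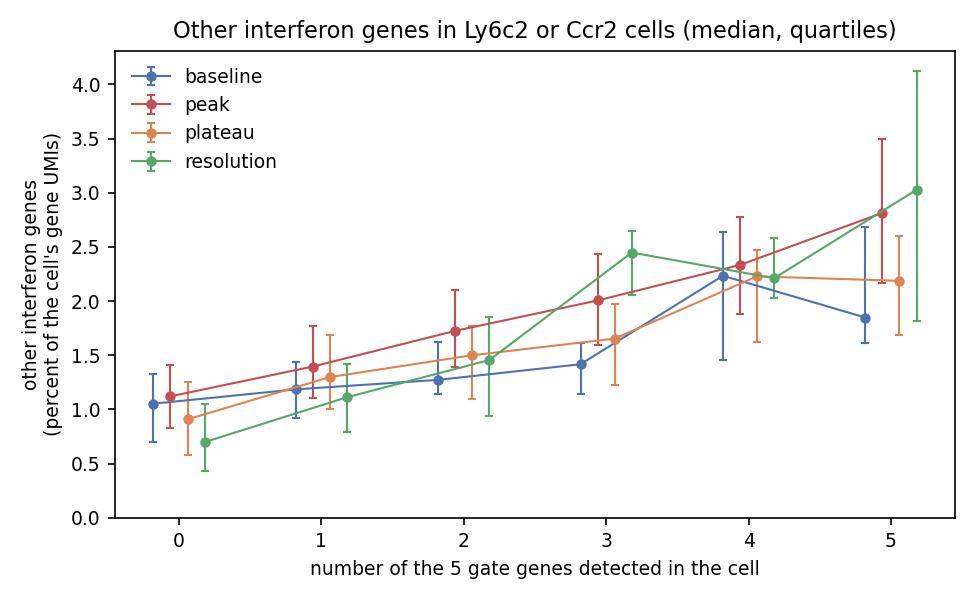
Other interferon genes as percent of a cell's gene UMIs, by how many of the 5 selecting genes were detected, in cells with Ly6c2 or Ccr2; points are medians over cells, bars the quartiles, and colours the 4 libraries. At peak the median climbs step by step from 1.12% to 2.81%.

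Isg15, Cxcl10 and Irf7 marked members in every library. Isg15 encodes a ubiquitin-like protein that is attached to other proteins after interferon. It reached 1368, 3513, 2103 and 1534 CPM in members from baseline to resolution, against 77.2, 285, 140 and 37.7 CPM in comparison cells. Members were 17.7-fold, 12.3-fold, 15.0-fold and 40.7-fold higher in that order. At peak 99.8% of members had an Isg15 UMI. Comparison cells also carried it often, at 56.6%, while 54 peak cells with markers of lymphocytes, basophils or mast cells and no Ly6c2 or Ccr2 had it in 27.8% (median depths 9327, 8182 and 3379.5 UMIs).

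Cxcl10, the chemokine that draws CXCR3-bearing T and NK cells, had 1702, 2966, 3612 and 549 CPM in members, and 10.6, 25.2, 18.8 and 20.1 CPM in comparison cells. Members were 161-fold higher at baseline (interval 125 to 209), 117-fold at peak (110 to 126), 192-fold at plateau (165 to 223) and 27.3-fold at resolution (19.6 to 37.3). In summed UMIs the resolution level lay below those of the other 3 libraries beyond counting error, which leaves out differences between cells. From baseline to resolution, 1 cell held 37.3%, 6.43%, 30.1% and 25% of the members' Cxcl10 UMIs. Members with a UMI were 70.6%, 74.6%, 72% and 64.3%, with medians of 11, 7, 4 and 2.5 UMIs. Their median depths were 11556, 9327, 8233 and 4371.5 gene UMIs. Cxcl10 was uneven among cells: at peak 74.6% of members had it, against 7.07% of comparison cells and 3.70% of the lymphocyte, basophil or mast marker cells. The median member held 7 UMIs and the highest 951, and the top 10% of members held 50.3% of the UMIs. Its relative Cxcl9, induced mainly by interferon gamma, had 5.61 CPM in peak members and 1.57 CPM in comparison cells, with 85.7% of the members' UMIs in 1 cell. Cxcl9 had no UMI in members of the other 3 libraries.

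The upstream sequences of selected genes are shown because many induced genes share a motif there. The motif searched was GAAANNGAAA, the core of the interferon-stimulated response element, on both strands (TTTCNNTTTC on the other), in RefSeq windows of build GRCm38.p6 from 250 bases before to 50 bases after each gene's start. The lines that follow give the 250 bases before the start on the gene's own strand, with motif matches in capitals. Ifit1, one of the selecting genes, lies at chr19:34640639-34640888 on the plus strand, Isg15 at chr4:156200819-156201068 on the minus strand, Cxcl10 at chr5:92348890-92349139 on the minus strand and Gbp2 at chr3:142620413-142620662 on the plus strand.
Ifit1: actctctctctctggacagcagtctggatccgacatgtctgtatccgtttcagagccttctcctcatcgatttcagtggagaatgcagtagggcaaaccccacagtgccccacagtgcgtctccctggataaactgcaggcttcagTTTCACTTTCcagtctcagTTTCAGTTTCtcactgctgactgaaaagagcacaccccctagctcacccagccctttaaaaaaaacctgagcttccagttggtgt
Isg15: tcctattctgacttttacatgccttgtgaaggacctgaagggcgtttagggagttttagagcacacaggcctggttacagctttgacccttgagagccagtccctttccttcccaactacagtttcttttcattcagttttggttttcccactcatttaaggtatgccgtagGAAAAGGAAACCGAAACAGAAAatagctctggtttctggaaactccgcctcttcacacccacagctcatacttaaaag
Cxcl10: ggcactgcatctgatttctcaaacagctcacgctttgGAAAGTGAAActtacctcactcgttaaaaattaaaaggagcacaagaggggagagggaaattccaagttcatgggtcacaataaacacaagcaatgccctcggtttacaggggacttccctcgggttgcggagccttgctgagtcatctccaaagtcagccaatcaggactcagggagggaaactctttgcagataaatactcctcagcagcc
Gbp2: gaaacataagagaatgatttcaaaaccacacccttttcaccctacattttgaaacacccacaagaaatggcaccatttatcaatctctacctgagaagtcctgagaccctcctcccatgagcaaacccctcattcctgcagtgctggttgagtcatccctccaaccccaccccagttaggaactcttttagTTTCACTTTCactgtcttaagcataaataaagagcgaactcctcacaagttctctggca

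Ifit1 held 2 matches, starting 104 and 85 bases before the start, and Isg15 held 3 that overlap, from 78 bases on. Cxcl10 had 1 match at 213 bases and Gbp2 had 1 at 59. The motif was in 3.44% of all 32851 windows, and in 1079 of the 27025 genes with a window (3.99%). Of the 132 genes at least 2-fold higher in peak members that had a window, 44 (33.3%) held it, against 134 of 2179 tested genes (6.15%). It was in 37 of 823 genes within 1.1-fold (4.5%) and in 0 of 22 genes at least 2-fold lower. Irf7, Oasl1, Ccl12 and Cxcl9 had no match in their windows. A match is a run of letters and shows no binding.

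Antiviral effectors formed the broadest group. At peak, 2744 genes outside the definition had at least 30 UMIs in both sums together and 50 CPM in either, and 5.98% of them were at least 2-fold higher in members, 1.02% at least 2-fold lower. Of the antiviral effectors 19 of 21 were at least 2-fold higher, with a median log2 ratio of 2.07 beside -0.08 over all genes. Ifit3b was 164-fold higher, at 173 and 1.05 CPM, and Ifit1bl1 was 148-fold higher, at 323 and 2.19 CPM. Both are copies of genes that chose the members, so reads may be split between them. Oasl1, an RNA-binding relative of the 2'-5' oligoadenylate synthetases, had 50.8, 223, 178 and 126 CPM in members and 3.09, 9.48, 4.28 and 2.18 CPM in comparison cells. Herc6, the mouse ligase that attaches ISG15, was 9.04-fold higher at peak. Ifitm3, which blocks virus entry, was already high in comparison cells at 5112 CPM and was 7828 CPM in members, 1.53-fold higher.

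The same group was higher in the other libraries. At least 2-fold higher were 18 of 20 tested effectors at baseline, 19 of 21 at plateau and 19 of 19 at resolution, beside 7.98%, 8.78% and 14.7% of all genes tested. At least 2-fold lower were 4.19%, 4.05% and 10.3% of all genes there, and no effector. Median log2 ratios were 2.34, 2.38 and 3.30.

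Sensors of nucleic acids were also higher at peak, 7 of 8 tested past 2-fold with a median log2 ratio of 2.31. Ifih1, which encodes the RNA sensor MDA5, had 140, 203, 201 and 217 CPM in members and 20.6, 27.1, 26.2 and 15.7 CPM in comparison cells. The counting intervals of the members' Ifih1 overlapped between all 4 libraries. Ddx58, the RNA sensor RIG-I, was 5.87-fold higher at peak. Ifi205 was 13.8-fold higher and Ifi208 34.8-fold, both of the cluster of closely related p200 genes, among which reads may be split. Tmem173, which encodes STING, was 1.39-fold higher, at 64.9 and 46.7 CPM. In the other libraries all tested sensors passed 2-fold: 8 of 8, 9 of 9 and 9 of 9.

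Of the receptor and signalling genes, the transcription factors stood apart and the receptors lay near equality. At peak 4 of 15 passed 2-fold and none was 2-fold lower, with a median log2 ratio of 0.45. Irf7, the factor that amplifies interferon responses, had 851, 937, 616 and 881 CPM in members and 98.2, 131, 82.0 and 46.0 CPM in comparison cells. Stat2 was 6.08-fold higher at peak and Irf1 2.43-fold. Ifnar1 was at 118 and 108 CPM and Ifnar2 at 220 and 213 CPM, 1.09-fold and 1.03-fold apart. Ifngr1, the receptor chain for interferon gamma, was 1.27-fold lower in members, at 376 and 479 CPM.

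Interferon ligands were near or at 0. Of the 11 ligand genes in the list, 10 had no UMI in peak members, and all 11 had none in the members of the other 3 libraries. Ifnb1, which encodes interferon beta, was seen in 3 of 445 peak members and 4 of 3932 comparison cells.

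Feedback inhibitors did not move as a group. Usp18, which removes ISG15 and blocks the receptor, had 152, 231, 274 and 240 CPM in members and 7.66, 13.6, 9.63 and 8.06 CPM in comparison cells. It was 17-fold higher at peak (interval 15.2 to 18.9). Socs1, which inhibits JAK kinases, was 8.18-fold higher. Socs3, which acts mainly on cytokine receptors of the IL-6 type, was at 234 and 241 CPM. Over the list 3 of 8 passed 2-fold and the median log2 ratio was 0.02, and below 0 among cells with both Ly6c2 and Ccr2.

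Guanylate-binding proteins and immunity-related GTPases, which attack microbes inside cells, were all higher: 6 of 6 tested at peak, with a median log2 ratio of 2.99, and 5 of 5, 7 of 7 and 6 of 6 in the other libraries. Gbp2 had 131, 168, 128 and 252 CPM in members and 15.3, 11.8, 9.63 and 16.8 CPM in comparison cells. Gbp5 was 29.9-fold and Igtp 7.96-fold higher at peak. The 12 highest genes of the peak contrast were Ifit3b, Ifit1bl1, Cxcl10, Ifi208, Gbp5, Oasl1, Ccl12, Usp18, Slfn9, Phf11a, Ifi206 and Gbp2. Slfn9 was 16.4-fold, Phf11a 16.3-fold and Ifi206 14.3-fold higher; Phf11a and Ifi206 also have near copies.

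**Figure D3:**
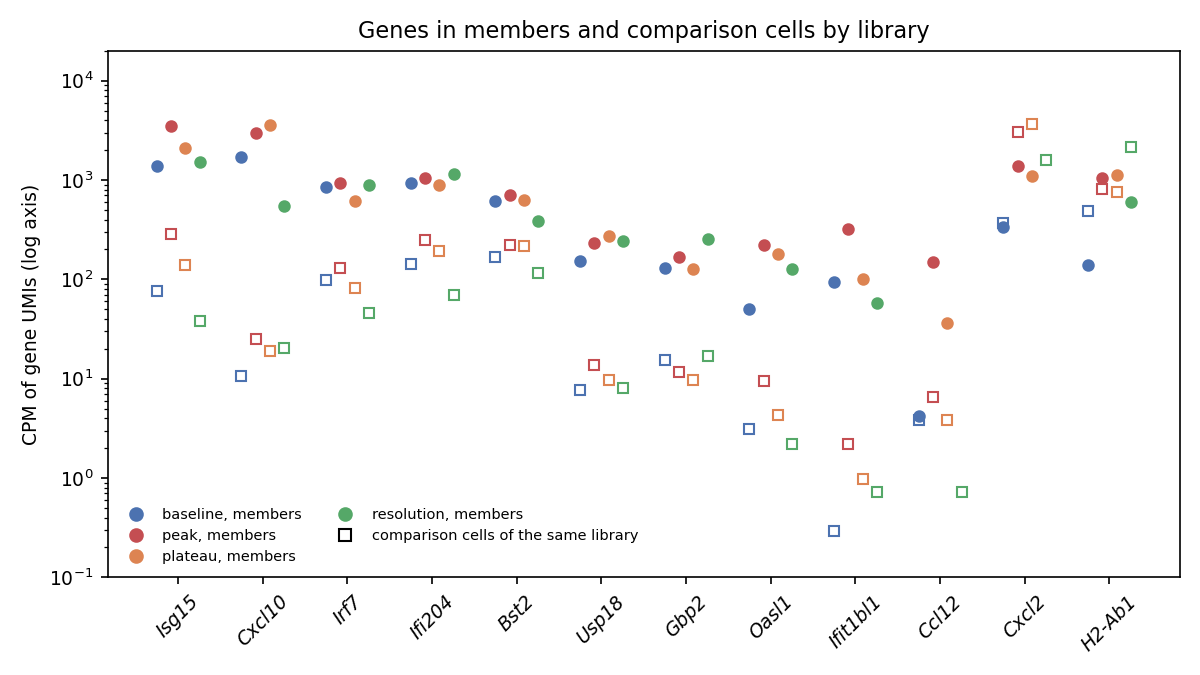
CPM (log axis) of 12 genes in members (filled circles) and in comparison cells of the same library (open squares), coloured by library. Isg15, Cxcl10, Irf7, Ifi204, Bst2, Usp18, Gbp2, Oasl1 and Ifit1bl1 lie above the comparison cells in all 4 libraries, while H2-Ab1 lies above at peak and plateau and below at baseline and resolution; Ccl12 and Cxcl2 had no UMI in resolution members and are not drawn there.

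Antigen presentation differed by class. MHC class I genes, which present peptides from inside the cell, were higher by small amounts: 4 of 13 passed 2-fold at peak, all 13 were positive, and the median log2 ratio was 0.74. Tap1, a subunit of the peptide transporter, was 3.18-fold higher and H2-T22 3.89-fold, while H2-K1 was 1.32-fold and B2m 1.35-fold higher. At baseline, plateau and resolution 4 of 12, 3 of 13 and 4 of 13 passed 2-fold, with medians of 0.60, 0.64 and 0.72.

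MHC class II genes took different directions between libraries. H2-Ab1, a class II chain, had 140, 1059, 1117 and 607 CPM in members from baseline to resolution, and 489, 806, 753 and 2152 CPM in comparison cells. Members were 3.50-fold lower at baseline, 1.31-fold higher at peak, 1.48-fold higher at plateau and 3.55-fold lower at resolution. Over 8 tested genes at baseline and 9 in each other library, medians were -0.56, 0.40, 0.57 and -1.15. Cd74, the class II chaperone, followed the same pattern, with 2181, 5645, 7211 and 5746 CPM in members and 3515, 4178, 4694 and 15697 CPM in comparison cells. At peak the list's one gene past 2-fold was Cd40, a costimulatory receptor, 4.09-fold higher.

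Chemokines lay on both sides. At peak 6 of 14 chemokines were at least 2-fold higher and 3 at least 2-fold lower. Ccl12, which attracts CCR2-bearing monocytes, had 4.23, 149, 36.5 and 0 CPM in members and 3.83, 6.52, 3.87 and 0.725 CPM in comparison cells. At peak 27.0% of members, 2.49% of comparison cells and 1.85% of the lymphocyte, basophil or mast marker cells had it, and 1 cell held 34.8% of its UMIs. Ccl5 was 8.52-fold, Ccl4 2.67-fold and Ccl2 2.01-fold higher. For Ccl5, 8.31% of peak members and 1.20% of comparison cells had a UMI. Ccl8 was 3.26-fold higher, with 56.4% of the members' UMIs in 1 cell.

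Neutrophil-attracting chemokines were lower at peak. Cxcl2 had 339, 1377, 1086 and 0 CPM in members and 373, 3019, 3698 and 1572 CPM in comparison cells. It was 2.19-fold lower at peak, although 50.6% of members and 49.2% of comparison cells had a UMI, beside 33.3% of the lymphocyte, basophil or mast marker cells. Cxcl1 was 2.89-fold and Cxcl3 2.27-fold lower. For Cxcl3, 1 cell held 50.5% of the members' UMIs, and without cells carrying markers of another type it was 4.53-fold lower. Tnf was 2.28-fold lower, at 26.3 and 59.7 CPM. Il1b, the inflammasome cytokine, was near equal at 3236 and 3455 CPM. Il15, which sustains NK and memory T cells, had 72, 53.3, 73.0 and 80.1 CPM in members and 16.2, 8.65, 8.48 and 17 CPM in comparison cells. Il18 was 2.45-fold higher at peak. The list of inflammatory mediators held 2 genes past 2-fold in each direction among 12, with a median log2 ratio of -0.09 that was above 0 with TMM totals.

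Fc receptors bind antibody complexes, the trigger of this arthritis. Fcgr1, which encodes CD64, had 216, 776, 689 and 149 CPM in members and 34.6, 278, 263 and 22.2 CPM in comparison cells. Fcgr4 was 3.25-fold higher at peak. The other 3 of 5 did not reach 2-fold; Fcgr3 had 320 and 315 CPM.

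**Figure D4:**
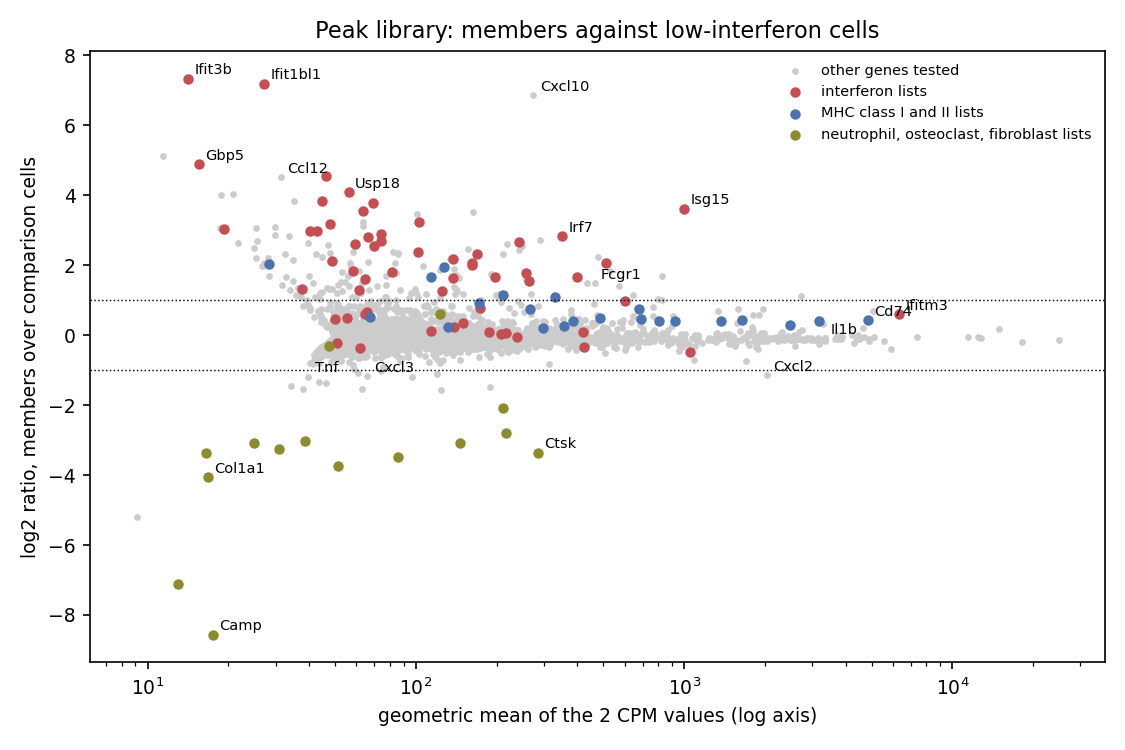
Log2 ratio of members over comparison cells at peak against the geometric mean of both CPM values (log axis), for genes outside the definition that were tested; dotted lines mark 2-fold. Interferon genes (red) reach up to 164-fold, MHC genes (blue) lie near or above 0, and most markers of neutrophils, osteoclasts and fibroblasts (olive) lie below -1.

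The lowest genes at peak were markers of other cells. They were Camp, Ngp, Elane, Col1a1, Mmp9, Prg4, Col1a2, Ctsk, Sparc, Acp5, Col3a1 and Dcn. Camp and Ngp are neutrophil granule genes, Ctsk and Acp5 osteoclast enzymes and Col1a1 a fibroblast collagen. Camp had 0.802 CPM in members and 341 CPM in comparison cells, and Ctsk had 89.0 and 911 CPM. In summed UMIs, the neutrophil list made up 5.82%, 0.175%, 0.0773% and 0.283% of comparison cells' UMIs and between 0.0217% and 0.0469% of members'. Median shares per cell ran the other way. They were 0.0375%, 0.0247%, 0.0161% and 0.0163% in members, and 0.0282%, 0.0167%, 0% and 0% in comparison cells. The osteoclast list made up 0.0170% of members' and 0.161% of comparison cells' UMIs at peak, with Calcr at 0 in both. With cells carrying at least 4 markers of another type removed (53 of 445 members and 300 of 3932 comparison cells), 9 genes in place of 28 were at least 2-fold lower. Those were Cxcl3, Sdc1, Cd9, Cxcl1, Slc7a11, Pdpn, Cxcl2, Tnf and Sh3bp5, while 167 in place of 164 were higher. Cxcl10 was then 121-fold, Irf7 7.10-fold higher and Cxcl2 2.37-fold lower.

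At peak, members were more common where other programmes were high or low. Ranking the 4986 cells with Ly6c2 or Ccr2 by their share of MHC class I UMIs, members were 1.68%, 3.45%, 8.83% and 21.7% of 4 equal groups of cells from lowest to highest. By classical monocyte genes the shares were 3.21%, 6.5%, 9.87% and 16.1%, and by MHC class II genes 3.85%, 9.46%, 10.6% and 11.8%. Of the 12 classical monocyte genes, 6 were higher in peak members than in comparison cells, and Plac8 and Ms4a4c alone passed 2-fold. By tissue macrophage genes the shares of members were flat, between 8.51% and 9.38%. By oxidative phosphorylation genes they ran the other way, 11.6%, 10.4%, 8.11% and 5.54%, and by Spp1, Arg1 and repair genes from 10.3% to 6.42%. Depth moved with membership too: groups by gene UMIs per cell held 5.77%, 7.54%, 10.4% and 12%. By dissociation stress genes the shares went from 6.82% to 11.2%. The part of depth and stress in these shares was not tested.

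The definition used no antibody, and among antibodies CD317 was highest at peak. CD317 (BST2), a tether that holds budding viruses, had a median of 8 UMIs per peak member and 3 per comparison cell. As a share of antibody UMIs it was 1.92-fold higher in members (interval 1.87 to 1.97). By library its log2 ratio was -0.21, 0.94, 0.68 and 0.76, and that of Bst2 RNA was 1.87, 1.67, 1.56 and 1.76. CD274 (PD-L1), an inhibitory ligand, was 1.80-fold higher at peak, with medians of 1 and 0, and was at 2632 CPM of antibody UMIs without its top cell, against 1841 in comparison cells. Cd274 RNA was 4.60-fold higher. Its antibody log2 ratio in the other libraries was -0.43, -0.40 and -0.11. The antibodies are read through these 15-base tags, shown for the pair that led the comparison and for the class II antibody.
CD317: tgtggtagcccttgt
CD274: tcgattccaccaact
I-A-I-E: ggtcaccagtatgat

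Summed over cells, the class II antibody had the directions of its RNA in all 4 libraries, though its medians at baseline were equal. I-A-I-E medians per cell were 4, 21, 14 and 6 UMIs in members and 4, 10, 8.5 and 20 in comparison cells. Its log2 ratios were -2.44, 0.33, 0.31 and -1.0. CD64 had medians of 3 and 2 at peak, a 1.27-fold difference beside 2.80-fold for Fcgr1 RNA. By library its log2 ratio was 0.36, 0.34, -0.54 and 0.05, and that of Fcgr1 RNA was 2.65, 1.48, 1.39 and 2.79. Of 92 antibodies 47 lay above the background set by antibodies of absent lineages, 3 of them at least 1.5-fold higher in peak members and 3 at least 1.5-fold lower.

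CD124, the IL-4 receptor, was 1.36-fold higher with medians of 3 and 1. CD357 was 1.59-fold higher in sum with medians of 0 and 0, and without its top cell it was at 622 CPM against 813 CPM in comparison cells. The lowest were CD55, CD14, CD80, FceRIa, CD163 and FrB, but CD163, FrB and CD357 changed direction with centred log ratios per cell. CD14, the endotoxin coreceptor, was at 0.645 times the comparison share with medians of 7 and 7. CD80, a costimulatory ligand, was at 0.649 times with medians of 6 and 5. CD55 was at 0.0840 times with medians of 0 and 0, so a few comparison cells carried its counts.

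**Figure D5:**
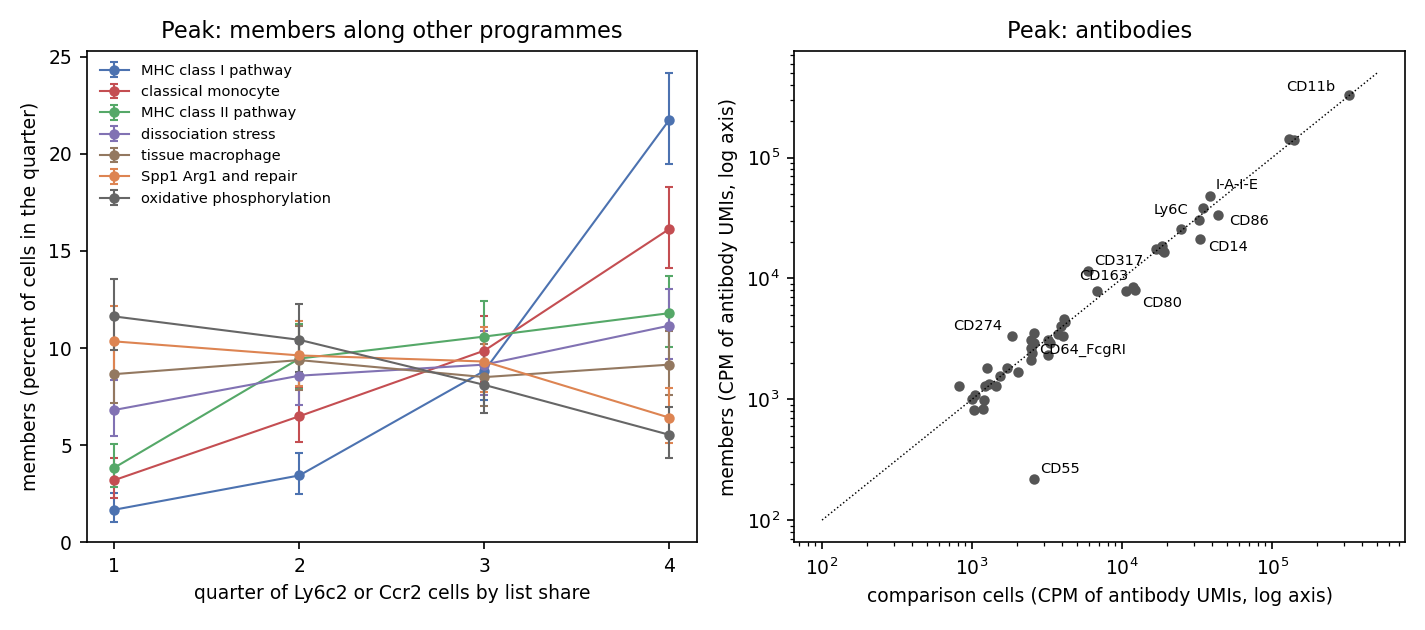
Left, members as percent of peak cells with Ly6c2 or Ccr2 in 4 equal groups ranked by the UMI share of each gene list, with exact 95% intervals; right, CPM of antibody UMIs in peak members against comparison cells (log axes), with equality dotted, for the 47 antibodies above background. Members climb from 1.68% to 21.7% with MHC class I genes, and CD317 and CD274 lie above the line.

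Most members came from donor marrow. Among cells with 5 or more UMIs over the CD45.1 and CD45.2 antibodies, 16 of 17 members at baseline (94.1%), 433 of 445 at peak (97.3%), 25 of 25 at plateau (100%) and 7 of 10 at resolution (70%, interval 34.8% to 93.3%) were CD45.1. The other 3 at resolution were 1 CD45.2 cell and 2 cells of mixed signal. Comparison cells were 85.9%, 96.9%, 96.4% and 84.2% CD45.1. The members' intervals held the comparison value in each library.

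Plateau and peak members differed mainly outside the interferon genes. Of 3092 genes tested, 8.05% (249) were at least 2-fold higher at plateau and 1.94% (60) at least 2-fold lower, but with edgeR TMM totals the split was 105 higher and 169 lower. Antiviral effectors had a median log2 ratio of -0.03, with 1 of 21 at least 2-fold lower and none higher, and sensors had -0.12. Members of both libraries had passed the same limits on interferon genes, so this likeness may follow from the selection. The 8 highest genes, Sele, Tm4sf1, Igfbp7, Selp, Fabp4, Sparc, Il6st and Pecam1, came mainly from 1 plateau cell, which held from 90.2% to 100% of each gene's UMIs in plateau members. It held 6 endothelial markers and 960 of the 1002 CD31 antibody UMIs of all plateau members. Without it 194 genes were higher and 62 lower, and the highest were Cd36, Pf4, Atxn1, Tusc3, Cd63, Ptgfrn, C1qc and Pitpnc1.

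Tissue macrophage genes were higher in plateau members than in peak members: 6 of 7 tested passed 2-fold. Comparison cells also had more of this list at plateau, 0.471% of UMIs against 0.293% at peak, with medians per cell of 0.266% and 0.187%. C1qa, a complement gene, had 0, 129, 602 and 1602 CPM in members from baseline to resolution. These levels rest on few cells, since at plateau 1 cell held 64.4% of the C1qa UMIs and at resolution 1 cell held all of them. Trem2, a lipid-sensing receptor, had 67.8, 103, 433 and 103 CPM and was seen in 18 of 25 plateau members.

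On the lower side, Ccl5 was at 86.6 CPM at peak and had no UMI at plateau, at least 6.33-fold lower against a floor of 3 counts over the plateau members. S100a8, S100a9 and Ccl8 were likewise at 0, at least 7.47-fold, 6.02-fold and 5.27-fold lower. In peak members 1 cell held 230 of the 510 S100a8 UMIs and 80.8% of the S100a9 UMIs. Few peak members had these genes: Ccl5 was seen in 8.31%, S100a8 in 13.9%, S100a9 in 7.19% and Ccl8 in 8.99%. Whether 25 plateau members were too few to show them was not tested. Ifitm1, an antiviral membrane gene, had 4.23, 748, 187 and 0 CPM in members and 8.39, 663, 285 and 9.18 CPM in comparison cells, so both kinds of cell had it in the arthritis libraries of day 7 and day 14. The peak members were 4.00-fold higher than plateau members (interval 2.94 to 5.58). Tarm1 was 7.25-fold lower at plateau (interval 2.47 to 35.3), Csnk2a2 5.10-fold (1.73 to 24.8) and Scimp 4.92-fold (1.91 to 18.1), on 3, 3 and 4 UMIs there.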

How the data were processed

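The deposited tables hold raw UMI counts of 32285 genes and 92 antibodies per cell barcode in 4 libraries, made by the authors with Cell Ranger 6.1.2; the submitters' processing notes also name Seurat 4.4.0 and build mm10. No normalization or cell annotation by the authors was used. A barcode was kept when it had 300 genes or more and no more than 10% of its UMIs came from mitochondrial genes. Counts were summed over cells, with log2 ratios taken after adding 0.5 UMIs. A gene was tested for size, not significance, with at least 30 UMIs in both sums together and 50 CPM in either, and called at 2-fold. The text names the 12 highest and 12 lowest genes at peak, the 8 highest and lowest between stages, and members of the lists by largest difference or level; other genes were added after their values were seen. Intervals were exact (Poisson for counts and ratios, Clopper-Pearson for shares) and treat UMIs or cells as independent. The panel names no isotype control, so antibody background was set at 2 times the highest of 7 antibodies to absent lineages, 990 CPM at peak. Doublets were kept; alternatives left out cells with both CD45 variants or the 6% with the highest Scrublet scores. CD45.1 was assigned at 80% of both variants' UMIs. The size rule was tested on simulated data: 100% of genes changed 4-fold were recovered, and 0% of unchanged genes were called at peak and 1.85% between stages. The simulated sums held counting error alone, and the changed genes had at least 100 CPM. Differences between cells were not simulated, so these rates do not cover genes whose UMIs lie in few cells. Members and gene lists were chosen with earlier results of these data known, and the limit of 4 markers for cells of another type after seeing the data. Mx1, Mx2, Mnda, Cxcl11 and Ly6a2 were not analysed here. A few other genes and antibodies are not reported here. Python 3.11.15, numpy 2.4.6, pandas 2.3.3, scipy 1.17.1, scanpy 1.11.5, R 4.3.3, edgeR 4.0.16 (TMM) and DESeq2 1.42.0 (median of ratios) were used, the last 2 for scaling alternatives alone.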

Additional observations from a re-analysis of the deposited data

Results flagged for a closer look

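MHC class II genes differed in direction between libraries. The median log2 ratio of members over comparison cells was 0.57 at plateau, where all 9 tested genes were positive, and -1.15 at resolution, where 2 of 9 were positive, a gap of 1.72. At baseline it was -0.56 and at peak 0.40. H2-Ab1 RNA and the I-A-I-E antibody took the same directions in summed counts, though the antibody medians at baseline were equal in members and comparison cells. Ly6c2 was seen in 45% of comparison cells at plateau and 31.6% at resolution, against 48% and 85.7% of members. Members numbered 25 at plateau and 14 at resolution, with 1 library each, and the difference was not tested.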

How the results depend on the processing

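No paired analysis was possible because each stage has 1 library. Each library is a stage, so mice, handling and stage cannot be told apart, and 17, 25 and 14 members limit all but the peak library. The peak share was 8.65% with 3 selecting genes, 4.28% with 5, 8.60% and 5.25% with limits of 0.05% and 0.2%, 6.65% with Ly6c2 required and 2.77% after thinning. The baseline share was 0.405% after thinning, the plateau share 0.460% with 5 genes, 0.424% with Ly6c2 and 0.291% after thinning, and the resolution share 0.0867% with 5 genes. With 10 UMIs and no CPM minimum, 625 genes were higher and 1540 lower at peak. Only 9 were lower without cells carrying markers of another type and 11 among cells with both Ly6c2 and Ccr2. TMM totals moved the log2 ratios by 0.14 at peak, -0.16 at resolution and -0.31 between stages. Between plateau and peak members, TMM totals gave 105 higher and 169 lower, median-of-ratios totals 105 and 174, the lower minimum 1934 and 558, and a pseudocount of 2 gave 34 lower. The donor share at baseline was 100% with either a 70% limit or 10 UMIs, and at peak 90.11% with a 90% limit. With centred log ratios per cell the antibody difference was -0.0608 for CD357, 0.0144 for FrB, 0.0909 for CD163 and -0.16 for CD55. The cause of these changes was not tested. Among list medians at peak, that of inflammatory mediators was -0.0891 as reported, 0.0532 with TMM totals and 0.0591 with median-of-ratios totals. That of negative feedback genes was 0.0209 as reported and -0.0686 among cells with both Ly6c2 and Ccr2. The other 7 lists kept their direction under the alternatives run. The alternatives that leave out cells by marker, require both monocyte genes or drop the endothelial-marker cell were chosen after seeing the data.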
